A study of Mus musculus with 7 samples.

Results

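The SR proteins and the heterogeneous nuclear ribonucleoproteins (hnRNPs) are the main families of RNA-binding proteins that choose splice sites. The genes described here are those whose Ensembl identifier maps to a mouse symbol beginning with Srsf and a digit or with Hnrnp, pseudogenes left out. These were 31 genes, 11 SR and 20 hnRNP, of 32212 in the expression files. They were measured by RNA-seq in subcutaneous Lewis lung carcinoma (LLC) tumours, grown from a mouse lung tumour line in 6-week-old C57BL/6J mice labelled wild type. The treated group was ZQD, with 3 libraries from mice given a decoction at 42.67 g/kg, and the control group had 4 libraries from tumour-bearing mice labelled as untreated. Mice were assigned to groups 3 days after injection of the cells, with 8 per group, and tumours were taken on day 22 by the protocol, while the series' design text gives day 21. Nothing in the labels ties a library to its own animal, and the p-values therefore describe the spread between these libraries, which may be technical.

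SR proteins carry RNA-recognition motifs and a tail rich in arginine and serine. They bind enhancers in exons and help recruit the spliceosome, and kinases of the SRPK and CLK families phosphorylate the tail. The hnRNPs coat nascent transcripts and often repress the splice sites near which they bind; several also act on export, stability or translation of mRNA. Many genes of both families limit their own level through an alternative exon or intron that sends the transcript to nonsense-mediated decay. Splice forms were not analysed here, since the deposited values are 1 number per gene.

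Levels are given as FPKM, reads scaled by gene length and library size, as deposited. Differences are log2 fold changes of ZQD over control on the log2(FPKM + 0.5) scale, from limma fitted over the 14838 genes that had at least 0.5 FPKM in at least 3 libraries. Of the 31 members, 30 passed that filter. Srsf12, a relative of Srsf10, did not: it had 4, 0 and 0 reads in the ZQD libraries and 1, 2, 4 and 4 in the controls. The lowest member inside the filter, Srsf4, averaged 5.63 FPKM, so no member lay near the threshold.

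The promoters below belong to the member with the smallest unadjusted p in each family and direction, and are shown so that the genes set beside each other in the results can be compared. Each is the 250 bases before the annotated start, from RefSeq on GRCm38.p6, written 5′ to 3′ on the gene's strand. Capitals mark matches to the searched motifs on either strand. Srsf9 lies at chr5:115326927-115327176 on the plus strand, Srsf2 at chr11:116853095-116853344 on the minus strand, Hnrnpr at chr4:136310692-136310941 on the plus strand and Hnrnpa0 at chr13:58128557-58128806 on the minus strand.
Srsf9: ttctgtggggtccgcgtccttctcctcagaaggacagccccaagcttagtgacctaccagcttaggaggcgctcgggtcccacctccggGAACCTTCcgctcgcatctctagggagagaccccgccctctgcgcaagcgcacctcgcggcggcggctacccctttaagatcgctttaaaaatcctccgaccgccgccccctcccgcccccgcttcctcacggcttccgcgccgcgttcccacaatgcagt
Srsf2: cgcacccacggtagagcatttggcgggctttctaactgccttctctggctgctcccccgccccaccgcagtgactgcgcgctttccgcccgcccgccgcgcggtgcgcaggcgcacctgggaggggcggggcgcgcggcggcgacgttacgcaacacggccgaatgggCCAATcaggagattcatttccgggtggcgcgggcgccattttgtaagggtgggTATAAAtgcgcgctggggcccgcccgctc
Hnrnpr: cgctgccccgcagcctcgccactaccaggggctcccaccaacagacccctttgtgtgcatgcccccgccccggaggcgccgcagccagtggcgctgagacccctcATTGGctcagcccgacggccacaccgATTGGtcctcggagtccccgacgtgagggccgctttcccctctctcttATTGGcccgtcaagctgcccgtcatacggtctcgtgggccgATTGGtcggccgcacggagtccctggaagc
Hnrnpa0: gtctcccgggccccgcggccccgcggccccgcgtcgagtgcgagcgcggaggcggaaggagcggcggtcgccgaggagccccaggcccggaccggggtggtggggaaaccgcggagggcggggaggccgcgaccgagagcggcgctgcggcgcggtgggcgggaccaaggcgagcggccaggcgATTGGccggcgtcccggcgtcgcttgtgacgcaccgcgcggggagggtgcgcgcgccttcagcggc

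Promoters of 29 of the 31 members were in the table; Hnrnpll and Hnrnpul2 were not. Their median GC content was 65.2%, against 59.6% over 9902 promoters of tested genes, and their median number of CpG dinucleotides was 23, against 16. The CCAAT box stood in 12 of 18 hnRNP promoters (66.7%) and 3 of 11 SR promoters (27.3%), against 36.9% of tested genes. Hnrnpr held it at 4 places, the nearest beginning 30 bases before the start, and Srsf2 held it 82 bases before the start with a TATAAA 29 bases before it. The ETS motif CCGGAAG was in 6 of 29 (20.7%), against 14.2% of tested genes, 4 of them SR genes. TATAAA was in 3 (10.3%), against 6.57%, and the heat shock element unit GAANNTTC in 2 (6.90%), against 4.97%. The E-box CACGTG was in 2 of 29 (6.90%), against 8.37%. No member matched the NRF1 motif, the YY1 motif AAGATGGCG or the spaced core of the interferon response element, which were in 1.66%, 1.21% and 2.88% of tested promoters. These 8 motifs are all that were searched, both strands each, with no overlap between matches in the sequences shown.

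Nearly all of the splicing factors were abundant in these tumours and differed little between the groups. No member passed an adjusted p of 0.05, and neither did any of the 14838 genes by limma (0%), whose smallest adjusted p was 0.0780. At an unadjusted p under 0.05, 4 members were higher in ZQD and 2 lower, of 30, against 5.21% of all tested genes higher and 10.3% lower. These counts depend on scaling: on the TPM scale 0 SR genes were higher and 2 lower, and 1 hnRNP gene was higher and 2 lower, with 377 of all genes higher and 2861 lower, against 773 and 1533 in the deposited FPKM. Over all genes the split was 1134 higher and 1087 lower by edgeR, 1188 and 1134 by DESeq2, and 1008 and 1158 with median-of-ratios scaling. In the same 6 members the ZQD and control libraries did not overlap (15.2% of all genes), 4 with ZQD above (5.35% of all genes) and 2 with ZQD below (9.84% of all genes). The log2 fold change in the deposited FPKM was within 0.1 of 0 for 15 of 30 members (50%). The shares were 35.3% of all genes and 38.4% of genes averaging at least 5 FPKM. Medians differed on this scale, at 0.021 for the members and -0.043 for all genes, and shares on other scales are not given. The spread within groups was also small: the median residual SD of the members was 0.0964 on the log2 scale, against 0.173 over all genes and 0.146 over genes averaging at least 5 FPKM. The 95% intervals of the log2 fold change reached between 0.161 and 0.343 to each side of the estimate. That width marks an unadjusted p of 0.05 for each gene and is not a limit of detection. Larger differences also went uncalled after adjustment, such as Srsf2 at -0.41 (limma adjusted p = 0.183). Every tested member had at least 654 reads in each library.

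**Figure D1:**
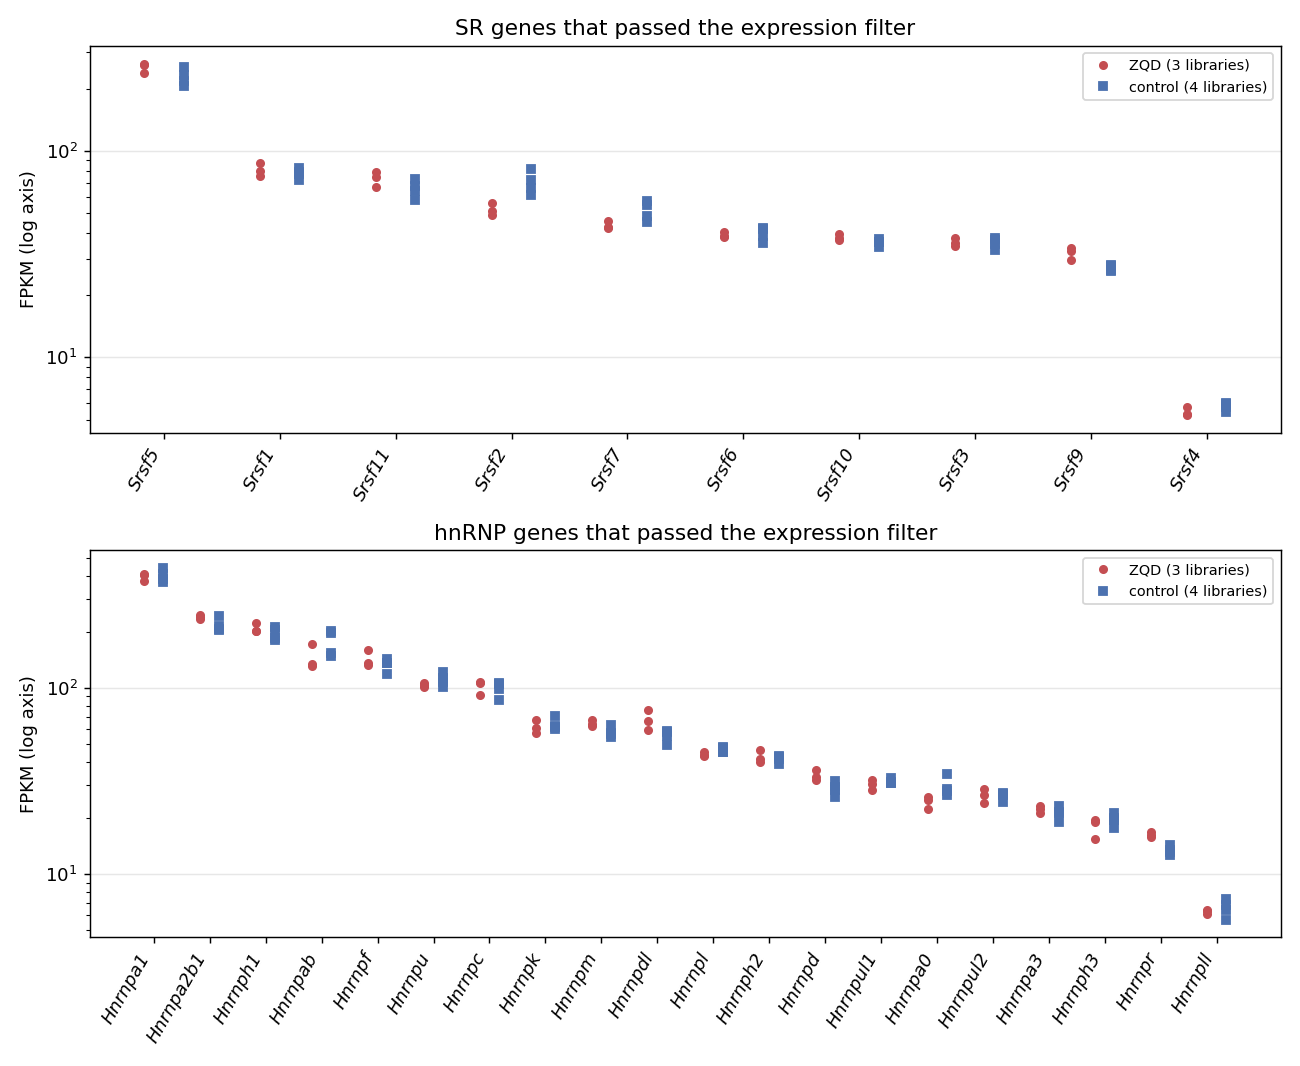
FPKM of each tested SR and hnRNP gene in each library (logarithmic axis), with ZQD and control libraries as separate points. Hnrnpa1 and Srsf5 head their families, with means of 398 and 239 FPKM, and most genes show overlapping groups.

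Summed over the family, SR genes had 656 ± 28.1 FPKM in ZQD (SD, n = 3) and 637 ± 34.2 FPKM in control (SD, n = 4). The hnRNP genes summed to 1795 ± 44.7 FPKM in ZQD and 1772 ± 104 FPKM in control. As a share of all assigned reads, SR genes took 0.322% ± 0.016 in ZQD and 0.309% ± 0.017 in control, and hnRNP genes 0.959% ± 0.013 in ZQD and 0.933% ± 0.050 in control. The groups overlapped in all 4 of these measures. The median log2 fold change was 0.033 for the 10 tested SR genes and 0.018 for the 20 hnRNP genes, a difference of 0.015. Taken in single libraries as deviations from group means, the SR minus hnRNP median had an SD of 0.045. That is a spread of single libraries and not the standard error of the 0.015. With values rescaled to a common library sum (TPM scale) both medians were negative, at -0.069 and -0.084, and the median of all genes moved by -0.10 as well. By edgeR and DESeq2 the shift was upward. Every tested member's log2 fold change lay above its limma value, and the medians of all genes were -0.0079 and -0.0069. In the deposited FPKM, positive values were found for 6 SR and 11 hnRNP genes, and negative ones for 4 and 9. Over all tested genes the median was -0.043. In bulk tumour RNA, fewer cells of a type and less RNA per cell cannot be told apart.

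**Figure D2:**
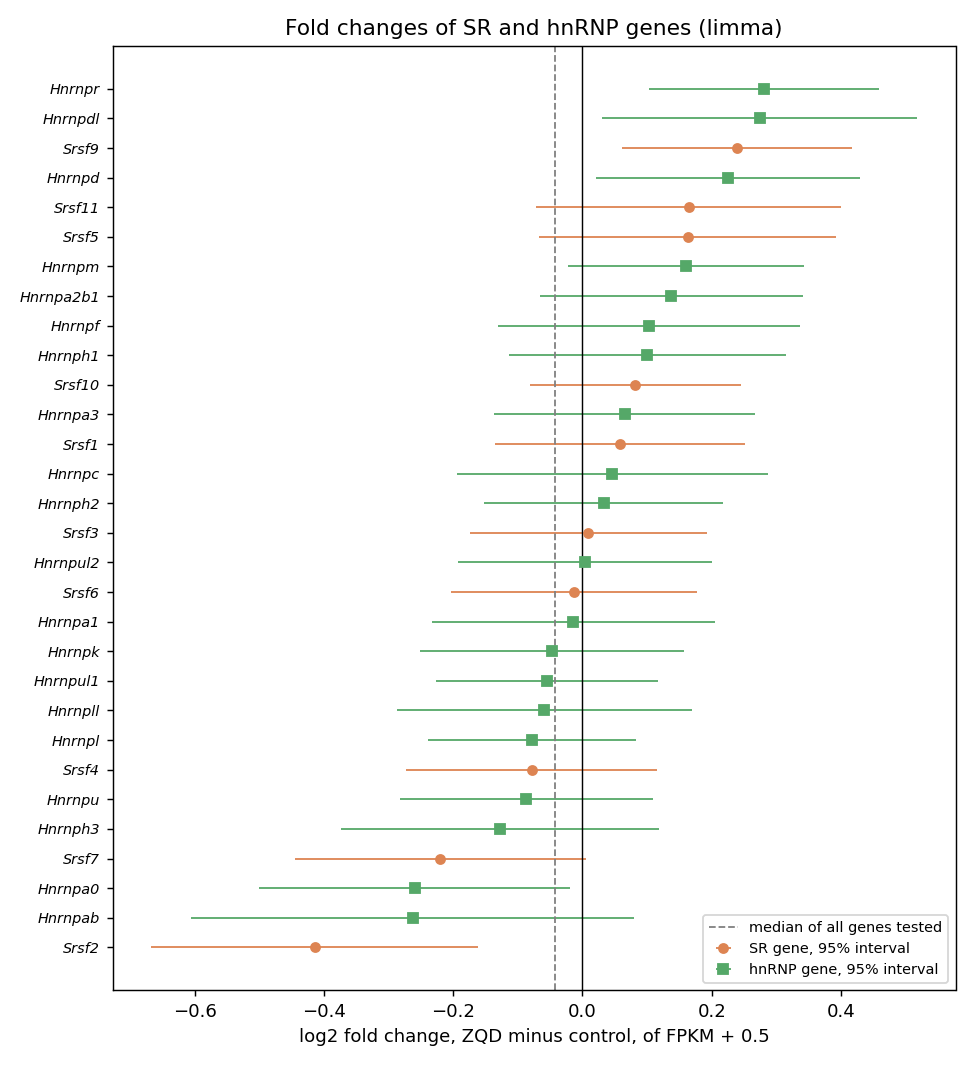
Log2 fold change of ZQD over control for each tested member with its 95% interval, SR and hnRNP genes apart. Values run between -0.41 (Srsf2) and 0.24 (Srsf9) in the SR genes and between -0.26 (Hnrnpab) and 0.28 (Hnrnpr) in the hnRNPs, and most intervals cross 0.

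Srsf2, also known as SC35, is an SR protein that activates exons and marks nuclear speckles. Its level was 51.2, 56.2 and 49.2 FPKM in the ZQD libraries and 65.8, 71.9, 61.0 and 81.5 FPKM in the controls. Every ZQD library lay below every control. The means were 52.2 ± 3.62 FPKM in ZQD and 70.1 ± 8.83 FPKM in control, a log2 fold change of -0.41 (SE 0.11, 95% interval -0.67 to -0.16, limma unadjusted p = 0.00512, adjusted p = 0.183). With any 1 library left out the unadjusted p stayed under 0.05, the highest being 0.0224. DESeq2 gave an adjusted p of 0.0724 and edgeR of 0.211. Exons of Srsf2 overlap Mettl23 and Mfsd11 on the opposite strand in GENCODE M21, and the sources used here do not say whether counting used strand. Those neighbours averaged 3.39 and 2.91 FPKM, well under Srsf2.

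Srsf9 is the close relative of Srsf1, the prototype SR protein. It had 32.6, 29.8 and 33.9 FPKM in ZQD, against 27.7, 28.0, 26.6 and 26.1 FPKM in control. No ZQD value fell among the controls, and the means were 32.1 ± 2.14 FPKM in ZQD and 27.1 ± 0.895 FPKM in control. The log2 fold change was 0.24 (SE 0.078, 95% interval 0.06 to 0.42, limma unadjusted p = 0.0144, adjusted p = 0.228). Without ZQD replicate 3 the unadjusted limma p was 0.0573, and on the TPM scale the log2 fold change was 0.14 with an unadjusted p of 0.142. On the reads, the unadjusted p was 0.00619 by edgeR (adjusted p = 0.190) and 0.00221 by DESeq2 (adjusted p = 0.0527). Srsf1 itself had 87.1, 75.7 and 80.4 FPKM in ZQD and 72.4, 82.4, 77.0 and 79.5 FPKM in control, and these groups overlapped (log2 fold change 0.06, 95% interval -0.14 to 0.25).

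Srsf7 and Srsf3 are the SR proteins best known for linking splicing to mRNA export. Srsf7 had 45.8, 42.5 and 42.8 FPKM in ZQD and 45.1, 56.995, 48.2 and 54.5 FPKM in control. One ZQD library overlapped the lowest control, and the log2 fold change was -0.22 (SE 0.099, limma unadjusted p = 0.0545, adjusted p = 0.330). Srsf3 averaged 36.0 FPKM in ZQD and 35.8 FPKM in control, with a log2 fold change of 0.0087.

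Srsf5 is one of the SR proteins with a pair of RNA-recognition motifs, and was the most abundant of the family. It had 265, 261 and 238 FPKM in ZQD and 205, 233, 256 and 217 FPKM in control, with overlapping groups (log2 fold change 0.16, SE 0.10, limma unadjusted p = 0.143, adjusted p = 0.465). Its relative Srsf4 averaged 5.44 FPKM in ZQD and 5.77 FPKM in control (log2 fold change -0.08), and Srsf6 averaged 39.2 FPKM in ZQD and 39.7 FPKM in control (log2 fold change -0.01). Srsf11 had 79.2, 75.0 and 66.8 FPKM in ZQD, against 63.7, 73.3, 67.9 and 58.1 FPKM in control. Its groups overlapped as well (log2 fold change 0.16, SE 0.10, limma unadjusted p = 0.148). For Srsf10, which represses splicing once it is dephosphorylated, the means were 38.1 FPKM in ZQD and 36.0 FPKM in control (log2 fold change 0.08, 95% interval -0.08 to 0.24).

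Among the hnRNPs, Hnrnpr had the smallest p. It is the relative of Syncrip and binds mRNA in nucleus and cytoplasm. Its level was 16.9, 16.3 and 15.9 FPKM in ZQD and 12.7, 13.1, 14.3 and 13.5 FPKM in control. All ZQD libraries exceeded all controls. Means were 16.4 ± 0.514 FPKM in ZQD and 13.4 ± 0.712 FPKM in control, with a log2 fold change of 0.28 (SE 0.078, 95% interval 0.10 to 0.46, limma unadjusted p = 0.00632, adjusted p = 0.187). With any 1 library left out the unadjusted p stayed under 0.05, at 0.0240 or less. DESeq2 on the reads rebuilt from FPKM gave an adjusted p of 0.0114 and edgeR one of 0.160. Hnrnpr was the 1 member that DESeq2 called, where it called 517 of 12525 genes (4.13%).

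The D group binds AU-rich elements in mRNA, and Hnrnpd (AUF1) is known for promoting decay of such messages. Hnrnpd had 32.01, 36.0 and 33.2 FPKM in ZQD and 26.0, 29.3, 28.4 and 31.5 FPKM in control. Its relative Hnrnpdl had 75.7, 66.3 and 59.1 FPKM in ZQD and 49.2, 57.9, 58.6 and 54.9 FPKM in control. In both genes the lowest ZQD library was just above the highest control. The log2 fold changes were 0.23 for Hnrnpd (SE 0.089, limma unadjusted p = 0.0340, adjusted p = 0.287) and 0.27 for Hnrnpdl (SE 0.11, limma unadjusted p = 0.0315, adjusted p = 0.283). The unadjusted p stayed under 0.05 in 3 of 7 fits with 1 library left out for each. It reached 0.122 for Hnrnpd without ZQD 2, ZQD 3, control 1 or control 3, and 0.127 for Hnrnpdl without ZQD 1, ZQD 2, control 1 or control 4. The third member of the group, Hnrnpab, pointed the other way, with 131, 134 and 172 FPKM in ZQD and 155, 197, 148 and 203 FPKM in control. Its groups overlapped (log2 fold change -0.26, SE 0.15, limma unadjusted p = 0.116). On the TPM scale the unadjusted limma p was 0.223 for Hnrnpd and 0.112 for Hnrnpdl. By edgeR the unadjusted p was 0.0218 for Hnrnpd and 0.0158 for Hnrnpdl. DESeq2 gave unadjusted p of 0.0140 and 0.0079 (adjusted p = 0.144 and 0.107).

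Hnrnpa0, a minor A-type hnRNP that binds AU-rich elements, had 22.4, 25.0 and 25.8 FPKM in ZQD and 28.8, 28.0, 26.5 and 34.3 FPKM in control. The highest ZQD library was just below the lowest control. The log2 fold change was -0.26 (SE 0.11, limma unadjusted p = 0.0377, adjusted p = 0.297). Without ZQD 1, ZQD 2, control 1 or control 4 the unadjusted p exceeded 0.05, up to 0.130. It was 0.0740 by edgeR, 0.0802 by DESeq2, 0.0742 with median-of-ratios scaling and 0.0518 with scaling that left out mitochondrial genes.

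**Figure D3:**
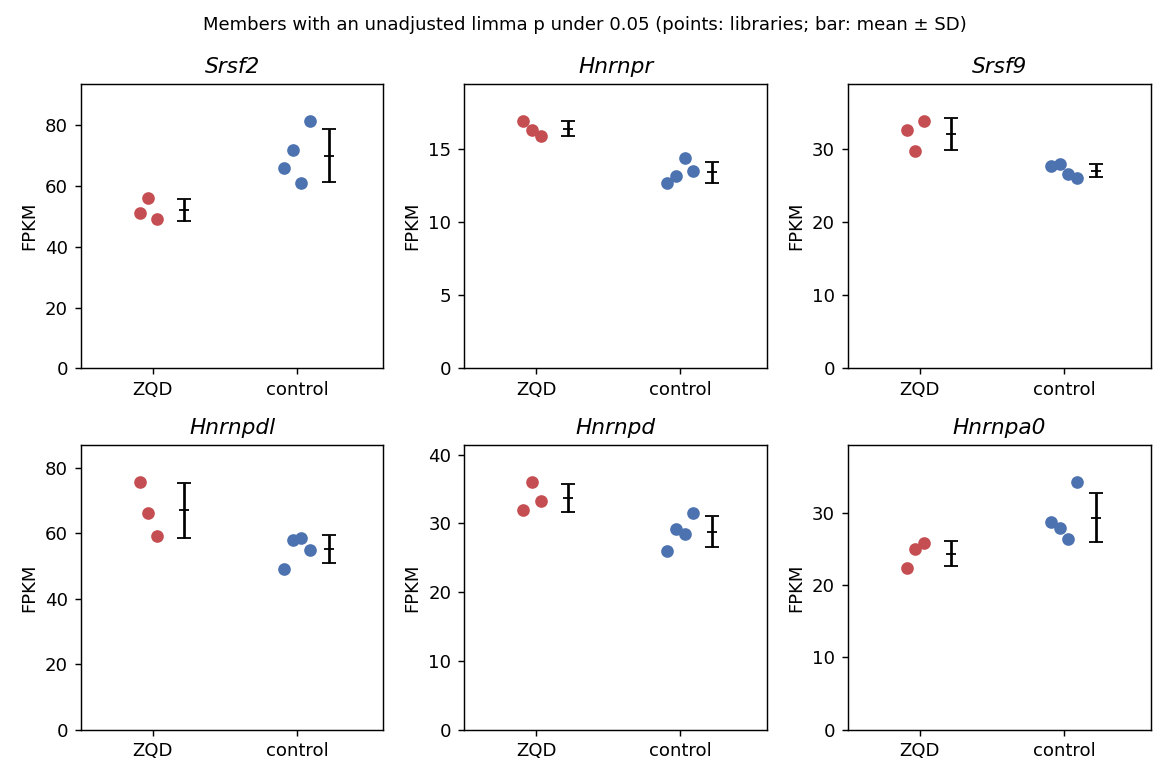
FPKM per library for the 6 members with an unadjusted limma p under 0.05, ZQD left and control right in each panel. ZQD libraries lie below all controls for Srsf2 and Hnrnpa0 and above all controls for Srsf9, Hnrnpr, Hnrnpdl and Hnrnpd, with the narrowest gap in Hnrnpd, Hnrnpdl and Hnrnpa0.

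The abundant A-type hnRNPs, which compete with SR proteins at many exons, differed less. Hnrnpa1, the highest member, had 375, 402 and 408 FPKM in ZQD and 370, 408, 382 and 439 FPKM in control (log2 fold change -0.01, 95% interval -0.23 to 0.20). Hnrnpa2b1 had 245, 233 and 239 FPKM in ZQD, against 207, 243, 216 and 205 FPKM in control (log2 fold change 0.14, limma unadjusted p = 0.160). Groups overlapped for both, and for Hnrnpa3, which averaged 22.2 FPKM in ZQD and 21.3 FPKM in control (log2 fold change 0.07).

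The F and H hnRNPs bind runs of G. Hnrnph1 had 224, 202 and 201 FPKM in ZQD and 180.2, 205, 211 and 184 FPKM in control, with overlapping groups (log2 fold change 0.10, limma unadjusted p = 0.315). Hnrnpf averaged 143 FPKM in ZQD and 133 FPKM in control (log2 fold change 0.10). Hnrnph2 averaged 42.5 FPKM in ZQD and 41.5 FPKM in control (0.03), and Hnrnph3 18.02 FPKM in ZQD and 19.7 FPKM in control (-0.13).

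The remaining hnRNPs bind varied sequences, and their groups all overlapped with no unadjusted limma p under 0.05. Hnrnpm averaged 64.6 FPKM in ZQD and 57.8 FPKM in control (log2 fold change 0.16, limma unadjusted p = 0.0782). Its unadjusted p was 0.0489 by edgeR and 0.0336 by DESeq2. Hnrnpc, which binds U tracts, averaged 102 FPKM in ZQD and 98.8 FPKM in control (log2 fold change 0.05). Hnrnpk, which binds runs of C, averaged 61.7 FPKM in ZQD and 63.7 FPKM in control (log2 fold change -0.05). The CA-repeat binder Hnrnpl averaged 44.1 FPKM in ZQD and 46.6 FPKM in control (log2 fold change -0.08), and Hnrnpll, known for CD45 splicing in T cells, 6.27 FPKM in ZQD and 6.57 FPKM in control (log2 fold change -0.06). Hnrnpu, a nuclear scaffold protein, averaged 104 FPKM in ZQD and 110.4 FPKM in control (log2 fold change -0.09). Its relatives Hnrnpul1 and Hnrnpul2 averaged 30.3 and 26.5 FPKM in ZQD and 31.4 and 26.4 FPKM in control (log2 fold changes -0.05 and 0.0034).

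Ratios of 2 members within a library do not depend on how the library was scaled. Of 11 pairs, chosen after the members' values were seen, ZQD was below control in all libraries in 4 and overlapped it in 7. Srsf7 over Srsf3 was 1.21 ± 0.025 in ZQD and 1.43 ± 0.083 in control. Srsf2 over Srsf1 was 0.648 ± 0.083 in ZQD and 0.900 ± 0.097 in control. Hnrnpab over Hnrnpd was 4.33 ± 0.75 in ZQD and 6.07 ± 0.67 in control, and Hnrnpa0 over Hnrnpa2b1 was 0.102 ± 0.0093 in ZQD and 0.136 ± 0.023 in control. Such pairs, picked for genes that already differed, carry no test.

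Reads of several members can be shared with near-identical processed copies. At 95% identity or more over at least 200 bases, Hnrnpa3 had 27 pseudogene copies, Hnrnpa1 9, Hnrnpf 6 and Srsf3 3, with 1 or 2 each for Hnrnpk, Srsf10, Srsf5, Hnrnpc, Hnrnph2 and Hnrnpr. Their levels are uncertain for that reason. Gm7964, a copy of Hnrnpk, averaged 70.3 FPKM, above the 62.9 FPKM of Hnrnpk itself. FPKM is scaled by gene length, and in reads the order was the reverse. Gm7964 had 3057 to 4566 reads per library and Hnrnpk 12804 to 19509. Gm10052, identical to Hnrnpa1 over 752 bases, averaged 90.0 FPKM, with 2610 to 4065 reads per library against 38600 to 58157 for Hnrnpa1. Gm12966, a copy of Srsf5, had 36.8, 42.9 and 31.996 FPKM in ZQD and 17.3, 28.0, 34.0 and 26.6 FPKM in control, and these groups overlapped (log2 fold change 0.51, limma adjusted p = 0.297). With copies' reads added to their parent gene, the counts of members under an unadjusted p of 0.05 were the same.

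**Figure D4:**
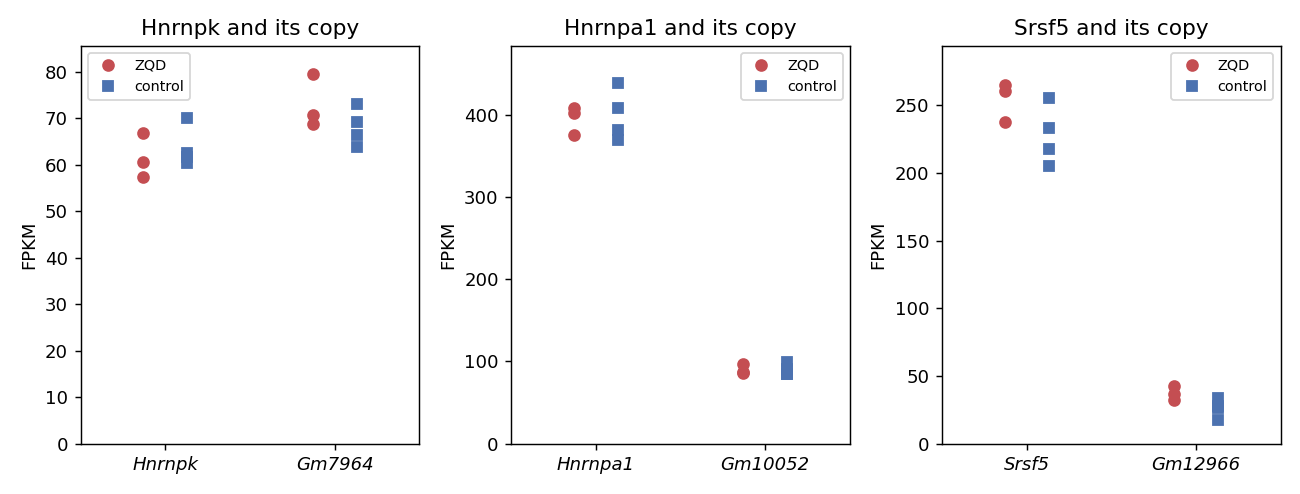
FPKM per library for Hnrnpk, Hnrnpa1 and Srsf5 beside their most abundant near-identical pseudogene copy. The copy of Hnrnpk averages 70.3 FPKM, higher than its parent gene, and the other copies lie below theirs. FPKM is scaled by gene length, and in reads the copy of Hnrnpk lies below its parent in every library.

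The members have a median of 7 annotated transcripts, against 5 for 11899 tested protein-coding genes. Transcripts of the nonsense-mediated decay type are annotated for 9 of 11 SR genes (81.8%) and 10 of 20 hnRNP genes (50%), against 28.7% of those genes. Retained-intron transcripts are annotated for 8 of 11 SR and 14 of 20 hnRNP genes, against 58.9%. A gene with more annotated transcripts has more chances to hold either type, the difference was not tested, and these annotations are not measurements in these tumours.

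Among genes that work with the SR proteins and hnRNPs, no list had a member with an adjusted limma p under 0.05. edgeR called 0% of all tested genes, while DESeq2 called 4.13% of 12525, several of them in these lists. The adjusted DESeq2 p was 3.8e-05 for Rbm3, 8.9e-05 for Luc7l3, 0.0022 for Ppig, 0.0094 for Magoh, 0.027 for Smg5 and 0.048 for Syncrip. Of 23 SR-related proteins outside the Srsf symbols, 7 were higher and 1 lower at an unadjusted limma p under 0.05, with a list median of 0.02. For this list and those that follow, the shares of all tested genes were 5.21% higher and 10.3% lower, with a median of -0.04, and these too move with scaling. Luc7l3, a U1-associated factor, had 96.7, 74.4 and 109 FPKM in ZQD and 49.9, 57.3, 61.9 and 42.0 FPKM in control, without overlap (log2 fold change 0.81, limma unadjusted p = 0.000989, adjusted p = 0.154). Ppig, a nuclear cyclophilin with an SR-rich tail, had a log2 fold change of 0.53. The abundant scaffolds Srrm1 and Srrm2 had 0.0022 and -0.18. Of 14 tested kinases and importers 0 were higher and 1 lower, the lower one being Clk3 (-0.22), with Dyrk2 at -0.23, Clk1 at 0.07 and Prpf4b at 0.15. Of 7 hnRNPs under other symbols, 3 were higher and 0 lower, among them Syncrip at 0.27, while Ptbp1 and Pcbp1 gave -0.07 and -0.10.

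Other RNA-binding regulators split 2 higher and 3 lower of 24. Rbm3, a cold-inducible RNA-binding protein, had 132, 149 and 160.1 FPKM in ZQD and 82.3, 95.4, 107 and 90.4 FPKM in control, without overlap (log2 fold change 0.65, limma adjusted p = 0.144). Elavl1 gave -0.37 and Ewsr1 -0.01. Core spliceosome genes had 1 higher and 5 lower of 34 with a median of -0.07, beside 10.3% lower and a median of -0.04 over all tested genes, with Snrpa (U1-A) at -0.43 and Sf1, the branch-point binder, at -0.40, while Snrpd1 and Snrpd3 gave 0.06 and 0.13. Genes of nonsense-mediated decay and the exon junction had 4 higher and 3 lower of 15. Magoh, an exon junction subunit, gave 0.58, against -0.38 for Smg5, which acts in decay, and 0.05 for Rbm8a. ZQD replicate 1 was the highest for Magoh, at 183, 125 and 115 FPKM in ZQD and 85.8, 95.3, 105 and 83.5 FPKM in control. Without that replicate the log2 fold change of Magoh was 0.38.

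**Figure D5:**
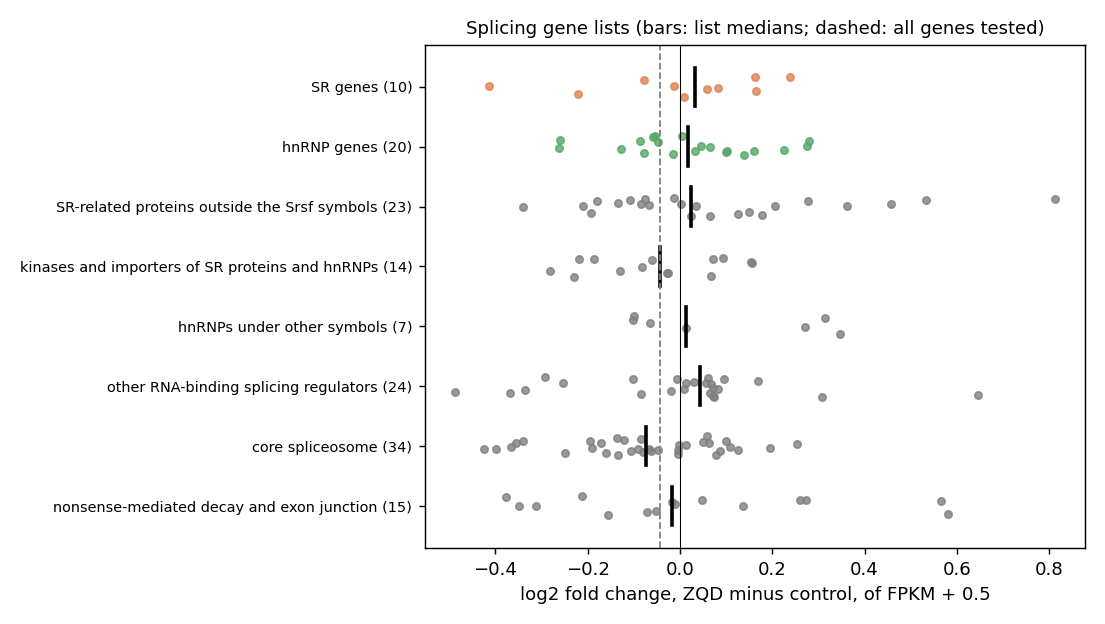
Log2 fold change of ZQD over control for each tested gene of the 6 pathway lists and the 2 families. SR and hnRNP genes lie between -0.41 and 0.28, and the highest values in the lists are Luc7l3 at 0.81 and Rbm3 at 0.65.

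Among other features of the libraries, the mitochondrial share and the FPKM sum over all genes separated the groups. Read totals and the summed marker levels given here overlapped. The FPKM sum, by which the TPM scale divides, includes the mitochondrially encoded genes. It was 311469 to 326728 in ZQD and 292310 to 303569 in control (exact permutation p = 0.0286, two-sided). Libraries held between 34765330 and 38673663 reads in ZQD and between 32065288 and 49914394 in control. Mitochondrially encoded genes took 8.78 to 11.1% of reads in ZQD and 5.18 to 7.96% in control (exact permutation p = 0.0286, two-sided, the smallest that 3 against 4 libraries allow). Of 10 macrophage and monocyte markers, 5 were higher and 0 lower at an unadjusted p under 0.05 (5.21% and 10.3% of all tested genes), and their summed level was 855 to 1054 FPKM in ZQD and 734 to 935 FPKM in control. Within this list C1qa, C1qc, Adgre1 and Cd68 gave log2 fold changes of -0.03, 0.08, 0.08 and 0.16. The list median was 0.41, beside 0.70 for neutrophil, 0.30 for fibroblast, 0.22 for T cell, 0.19 for proliferation and 0.17 for endothelial markers. The neutrophil median rests on 6 of 9 markers, and each had its lowest log2 fold change without ZQD replicate 2. S100a9, for example, had 9.56, 48.6 and 21.1 FPKM in ZQD. List medians were -0.23 for epithelial and -0.03 for B cell markers, with 2 tested in each. Proliferation markers had 0 of 10 under that p, summed to 312 to 374 FPKM in ZQD and 247 to 345 FPKM in control. Of 6 epithelial markers 2 passed the filter. Krt19 had 6.26, 17.6 and 19.7 FPKM in ZQD and 7.14, 31.6, 11.7 and 21.9 FPKM in control, and Cdh1 was the other. Krt7 was under 0.1 FPKM in all libraries, and Krt8, Krt18 and Epcam did not pass the filter. The part of these features in the splicing factor values was not tested.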

How the data were processed

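Total RNA from tumours was poly(A)-selected and sequenced as paired ends, per the labels' protocols. The submitters' processing notes name HISAT2, featureCounts, Subread and DESeq2, without versions; the build, the annotation and the strand setting are not stated in the sources used. The authors deposited FPKM per gene for 7 libraries and raw read counts for 2 controls. Gene lengths from these 2 count files turned the FPKM of the other 5 libraries into reads, whole within 0.05 for 100% of values. Symbols matched 98.0% of 32212 identifiers. limma 3.58.1 tested log2(FPKM + 0.5) with Benjamini-Hochberg adjustment over all tested genes. edgeR 4.0.16 and DESeq2 1.42.0 tested the reads, as alternatives; scripts were tested on simulated data. The members and lists were chosen with earlier results of these data known. Members given in full are the 4 of smallest p and the 3 of highest level per family, with close paralogues given by group means or, for Hnrnpab, in full, and the lists' named genes the 2 of smallest p and the 2 of highest level. Some genes that this rule names are not reported here.

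Some choices were settled after values were seen. The exact permutation test counts splits by the absolute difference of means over 35 splits. The form that doubles 1 tail, computed first, gave 0.0571 for the mitochondrial share and for the FPKM sum. DESeq2's filtering level was changed to 0.05, the threshold used here, after the default had been run (both counts are given with the alternatives). The 11 ratios were also chosen then. The 95% intervals come from limma's standard error and describe the spread between libraries.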

Additional observations from a re-analysis of the deposited data

How the results depend on the processing

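Adjusted calls over all genes were 0 by limma and by edgeR (2306 and 2221 genes under an unadjusted p of 0.05), 517 by DESeq2 with its filtering level at 0.05 and 504 at its default, chosen between after both were seen. At an unadjusted p under 0.05, 1188 genes were higher and 1134 lower by DESeq2, and 1134 and 1087 by edgeR, and Hnrnpr gave 0.33 by DESeq2. On the TPM scale, which shifted the median of all genes by -0.10, 377 genes were higher and 2861 lower, against 773 and 1533. SR counts became 0 higher and 2 lower and hnRNP counts 1 and 2, with medians of -0.069 and -0.084. Relative to the median of all genes these were 0.076 and 0.061, as without that scale. Values of 8 members changed sign there: Hnrnpa3 -0.036, Hnrnpc -0.057, Hnrnph1 -0.0023, Hnrnph2 -0.070, Hnrnpul2 -0.099, Srsf1 -0.045, Srsf10 -0.020 and Srsf3 -0.094. Without a filter 1383 genes were higher and 2 SR genes lower. The hnRNP genes lower numbered 0 with edgeR, DESeq2, median-of-ratios scaling, scaling without mitochondrial genes and library weights. Under these 5, Hnrnpa1 became 0.027, 0.029, 0.018, 0.029 and 0.019, and Srsf6 0.028, 0.029, 0.019, 0.030 and 0.0048. The copies' reads, an alternative chosen after seeing the data, turned Hnrnpa3 to -0.014. Causes were not tested. The labels do not say whether replicate numbers pair the libraries. Correlations of same-numbered libraries were 0.25, 0.0998 and -0.15, and those of differently numbered ones ran between -0.30 and 0.26. With so few libraries these values cannot settle it. With the replicate block on libraries 1 to 3, 1 gene was called after adjustment, 0 SR genes were higher and 0 hnRNP genes lower, and Hnrnpa1, Hnrnpul2 and Srsf6 gave 0.032, -0.031 and 0.017. Srsf9 and Hnrnpdl then had unadjusted limma p of 0.0690 and 0.0966. Leaving out 1 library at a time gave 0 to 1 SR genes higher, 1 to 2 lower, 1 to 4 hnRNP genes higher and 0 to 2 lower, and differences of family medians between -0.023 and 0.062. Sign changes then occurred for Hnrnpa1 (-0.051 to 0.032), Hnrnpc (-0.019 to 0.12), Hnrnph2 (-0.027 to 0.072), Hnrnpk (-0.11 to 0.0027), Hnrnpul2 (-0.054 to 0.066), Srsf3 (-0.030 to 0.037) and Srsf6 (-0.059 to 0.017), none under an unadjusted p of 0.05. Depth was at least 654 reads per tested member and library.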
